A study of Mus musculus with 41 samples.

Results

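Epithelial mammary tumors that arose early or late in mice kept on the low-fat diet (LFD) throughout were compared. The members were chosen by their labels alone, as tumors of the epithelial class (given in the labels as "p53 variable") under LFD. There were 8 of them, 4 early and 4 late, out of 29 epithelial tumors and 41 tumors in the series. Fragments of mammary duct from BALB/c mice with no Trp53 were placed in the cleared fat pads of wild-type BALB/c females, so the grafted epithelium of both groups lacked Trp53 while the host's stroma, vessels and immune cells kept it. Both groups ate LFD from the start of the experiment to its end and were grouped by onset: an early tumor appeared within a year of transplantation and a late one after that. RNA of each whole tumor was hybridised on a 2-colour Agilent array against a universal mouse reference, which pools RNA of 11 cell lines of the mouse. The early tumors carried the labels 11R, 17R, 22R and 31R, and the late tumors 11L, 13L, 19R and 27L4A. Whether tumors with the same number grew in the same mouse, and which donor each graft came from, is not given in the sources used here, so p-values measure the spread between these tumors only.

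Values are log2 ratios of tumor over reference, so 0 is the level of the reference pool and a difference of 1 between groups is a doubling on the linear scale. The labels give Cy5 for the tumor, while the study's methods give Cy5 for the reference. The labels were followed: over the 8 arrays the median SD of a gene's signal was 0.564 (log2) in Cy5 and 0.169 in Cy3, and it was larger in Cy5 for 91.3% of genes. The 4 early arrays lay on one slide and the 4 late arrays on another, all scanned on 1 day on 1 scanner, so slide and onset cannot be told apart. Between 62.8% and 76.8% of spots were well above background on the early arrays and between 73.0% and 89.9% on the late arrays. Array 11L stood apart from the other late arrays, with 89.9% of spots well above background against 73.0% to 75.4%, and with an SD of log2 ratios of 1.319 against 1.642 to 1.663. The log2 ratios of 10 control probes for spike-in transcripts, which match no mouse gene, were all higher on the early arrays, by 0.61 to 1.37 with a median of 0.77. All 8 scanner files matched their own tumor's column of the authors' matrix best (r 0.973 to 0.989 across genes). Among the other 21 epithelial tumors, 3 HFD files (high-fat diet throughout) did not: those labelled 40R4A (early), 57R (late) and 65R (early) each correlated at 0.979 to 0.985 with the column of another of the 3 and at 0.793 to 0.873 with their own. Main results of the comparison between regimens and of the fit of 29 tumors are given with and without them. Levels over the other 21 epithelial tumors include them.

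Krt8, Krt18 and Vim went with the epithelial label in all 8 tumors, and Epcam did in 7. Krt8 and Krt18, the keratins of luminal and simple epithelium, lay above the reference in all 8 tumors, between 1.33 and 2.64 for Krt8 and between 1.80 and 3.29 for Krt18. Vim, the intermediate filament of mesenchymal cells, lay below the reference in all 8, between -2.86 and -1.52. Epcam, an adhesion molecule of epithelial cells, was at 2.4 to 3.02 in 7 tumors and at -1.62 in late tumor 13L. The same tumor had Trp53 at -2.25, where the other 7 were between 0.41 and 1. Trp53 signal can come from host cells, so it does not check the graft. The basal keratins varied without regard to onset, Krt5 from -3.61 to 1.96 and Krt14 from -3.03 to 2.27.

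Several of the genes described below respond to interferons. Type I interferons are released by cells that sense foreign or misplaced nucleic acid; they act through a receptor and transcription factors such as STAT2 and IRF9 to switch on genes with an interferon-stimulated response element, whose products sense RNA, block viral replication or tune the response. Interferon-gamma, released by T and NK cells, induces guanylate-binding proteins and immunity-related GTPases along with antigen presentation. Mammary tumors can also hold exocrine secretory transcripts and, where a tumor grows beside body wall or limb, RNA of muscle fibres.

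The question was which genes differed between early and late epithelial tumors under constant LFD. With the 8 tumors alone no gene passed an adjusted p of 0.10 (limma with Benjamini-Hochberg adjustment over 21373 genes), which is 0% of genes in either direction, and the smallest adjusted p was 0.201. At an unadjusted p under 0.05, 873 genes (4.08%) were higher and 1086 genes (5.08%) lower in early tumors. All 4 early tumors lay above all 4 late tumors for 595 of 21325 genes measured in all 8 (2.79%), and below them for 694 (3.25%). When all 29 epithelial tumors lent their spread to the same contrast, 1 gene was called higher in early tumors (0.00468%) and 3 were called lower (0.014%): Pla2g4c, and Pip, Wipf3 and Kcnj13. Without the 3 HFD tumors, an alternative added after seeing the data, that fit called the 3 lower genes and not Pla2g4c. With slide as a random block the fit of 29 tumors called Pip alone. Such a block cannot take out a shift between the slide of the early and that of the late LFD arrays.

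Pip, a secreted protein of exocrine glands induced by prolactin and androgen, had the largest difference of the 4. Its probe is at chr6:41801874-41801933 (mm9). Its log2 ratio was -7.50, -7.89, -7.63 and -7.22 in the early tumors and -4.90, -0.40, -1.58 and -0.78 in the late tumors. The groups did not overlap, but late tumor 11L lay between the early tumors and the other 3 late ones, and the tumor signal was well above background on only 1 of the 4 early arrays. The difference was -5.64 (SE 0.87 with the 8 tumors), with an adjusted p of 0.201 by limma on the 8 tumors and 0.0214 on all 29. Without 11L, the late tumor nearest the early ones, the same test on the other 7 tumors gave an adjusted p of 0.00105 by limma. Without early tumor 11R it gave 0.553 by limma, the highest of the 20 alternatives.

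Wipf3, a regulator of actin filaments of the WASP-interacting family, was at -2.22, -2.18, -1.78 and -0.63 in the early tumors and at 0.27, 0.96, 1.44 and 1 in the late tumors. Every early tumor was below the reference and every late tumor above it. The difference was -2.62 (SE 0.40). Kcnj13, an inwardly rectifying potassium channel, was at -3.36, -3.61, -2.52 and -2.75 in the early tumors, where 1 of 4 arrays was well above background, and at -0.42, -0.72, -0.64 and 1.48 in the late tumors. Its groups did not overlap either, with a difference of -2.99 (SE 0.51), which ranged from -3.2 to -1.24 over the 20 alternatives. Pla2g4c, a cytosolic phospholipase A2 that frees fatty acids from membrane lipids, was at 3.85, 2.18, 2.52 and 3.69 in the early tumors and at 0.74, 0.09, 0.64 and 0.11 in the late tumors. Its difference was 2.67 (SE 0.41), of which the tumor channel gave 1.71 and the reference channel, which holds the same RNA on every array, gave -0.97 with the opposite sign. These 3 genes each had an adjusted p of 0.0771 by limma on all 29 tumors, and none of them passed with slide as a random block. Without the 3 HFD tumors the adjusted p by limma was 0.0819 for Wipf3 and Kcnj13, 0.0275 for Pip and 0.15 for Pla2g4c. The Wipf3 probe is at chr6:54453687-54453746, the Kcnj13 probe at chr1:89282991-89283050 and the Pla2g4c probe at chr7:13941578-13941637 (mm9).

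The other genes of smallest p did not pass in either fit, and all had groups that did not overlap. F3, tissue factor, which starts blood coagulation, was at 1.64, 1.05, 1.09 and 1.72 in early tumors and at -0.88, -0.68, -0.05 and -0.31 in late tumors, a difference of 1.85 (SE 0.27). Epha2, a receptor tyrosine kinase for ephrins, was at 2.62, 2.51, 2.64 and 2.12 in early tumors and at 0.76, 0.76, 0.99 and -0.06 in late tumors, a difference of 1.86 (SE 0.27). For both, the late tumors were near the reference and the early tumors above it. Slfn3, a Schlafen family member of the immune system, was at 2.83, 3.04, 3.24 and 1.28 in early tumors and at 0.78, -0.38, -0.02 and -0.64 in late tumors. Btbd17 (difference 2.70), Slamf6, a receptor of lymphocytes (1.13), and the clone names C130026I21Rik (2.05), 4930469K13Rik (1.64) and 4933433H22Rik (1.52) had higher values in early tumors. For Slamf6 the tumor channel differed by 0.29 and the reference channel by -0.86, so most of its ratio difference was in the reference. Acss1, a mitochondrial enzyme that makes acetyl-CoA from acetate, was at -2.02, -1.81, -1.54 and -2.06 in early tumors and at -0.73, -0.04, 0.39 and 0.24 in late tumors. Sult5a1, a sulfotransferase (difference -2.33), Gm12758 (-1.78), Spdya, an activator of cyclin-dependent kinases (-1.34), Fn3k, which removes sugar adducts from proteins (-1.32), Cilp, a cartilage matrix protein (-1.28), and Klhl32 (-1.19) had lower values in early tumors. Adjusted p-values of these genes were 0.201 or 0.252 by limma on the 8 tumors. The tumor signal of Gm12758 was well above background on 1 of the 4 early arrays. Over all genes the reference channel differed more than the tumor channel for 24.2%, against 18.4% of the genes higher and 0.83% of the genes lower at an unadjusted p under 0.05.

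**Figure D1:**
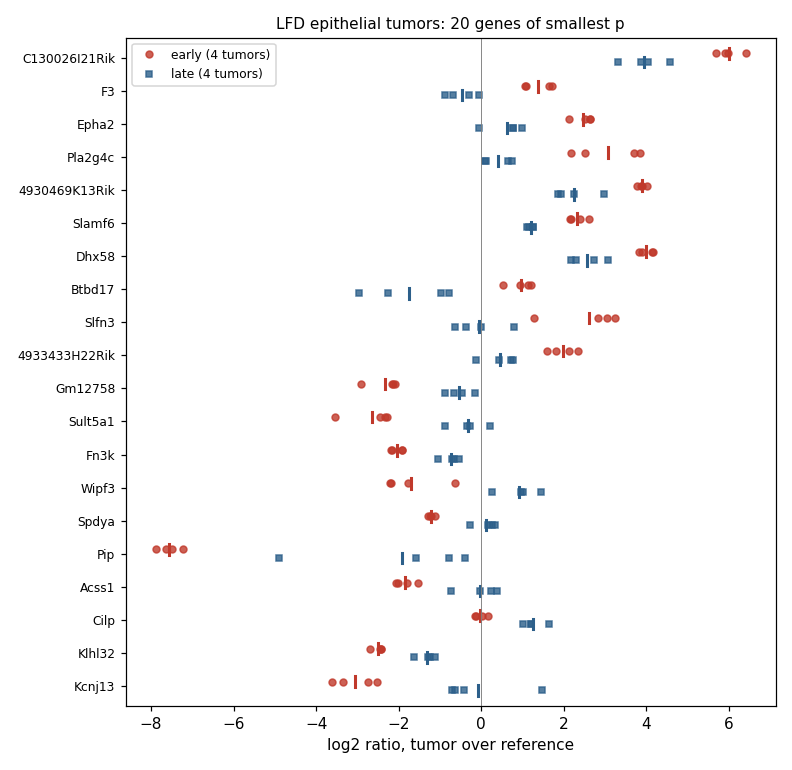
Log2 ratio of tumor over reference (x axis) of the 20 genes of smallest p, 10 higher and 10 lower in early tumors (y axis). Points are the 4 early tumors, squares the 4 late tumors and bars the group means. For every gene the groups lie apart; Pip spans the widest range, with late tumor 11L at -4.90 and the other late tumors between -1.58 and -0.40.

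Pip was one of several secretory genes that were low in early tumors and higher in 3 of the 4 late ones. Pip itself stayed below the reference in all 8 tumors, while the others lay above it in those 3 late tumors. The others were named after their values were seen. Scgb2b27, a secretoglobin subunit of the androgen-binding protein family, was at -4.59, -4, -3.74 and -3.01 in early tumors, where no array was well above background, and at -2.04, 2.46, 1.60 and 2.93 in late tumors. Scgb2b2 was between -2.55 and -2.18 in early tumors and at -1.11, 2.57, 1.60 and 3.30 in late tumors. Scgb2b20 was between -2.48 and -2.30 in early tumors and at -1.74, 1.72, 1.09 and 2.57 in late tumors; its other probe was well above background on 0 of the 8 arrays and did not pass the filter. Probes of this family may read each other's transcripts, so the 3 are not separate evidence. Car6, the carbonic anhydrase secreted in saliva and milk, was at -1.73, -3.94, -2.38 and -2.96 in early tumors and at -1.03, 2.68, 1.95 and 3.47 in late tumors. In each of them 11L was the lowest late tumor, nearer to the early tumors than to the other late ones. The differences were -3.93 (SE 0.81) for Scgb2b2, -3.29 (SE 0.79) for Scgb2b20 and -4.52 (SE 0.91) for Car6, with adjusted p between 0.263 and 0.296 by limma. For Scgb2b27 only a bound can be given: its tumor signal was at least 19.2-fold higher in late tumors (adjusted p 0.252 by limma), set against the dimmest signal well above background on each early array after quantile normalisation of the mean log2 intensities, which leaves dye bias in place. Without 11L these 4 and Pip were the 5 genes called, all lower in early tumors. Leaving out any other single tumor called none of them.

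Milk proteins, another set of secretory products, had no common direction. Of 14 members tested, 5 were higher and 9 lower in early tumors, with a median of -0.14, which was -0.48 without 11L and 0.34 without 19R. Wap, a whey protein of lactation, was at -0.17, 0.71, 0.08 and 0.80 in early tumors and at 1.79, 1.48, 3.37 and 3.2 in late tumors, a difference of -2.11 (SE 0.47) with no overlap. Its tumor channel differed by -3.19 and its reference channel, which holds the same RNA on every array, by -1.11 in the same direction. The caseins Csn2, from 3.64 to 7.98 in early tumors and 3.64 to 8.90 in late ones, and Csn1s1, from 5.50 to 6.66 and 5.07 to 6.31, overlapped between the groups.

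The 29 tested genes of the type I interferon response were all higher in early tumors, with a median difference of 1 against -0.01 over all genes. None passed after adjustment. At an unadjusted p under 0.05, 21 of 29 (72.4%) were higher, against 4.08% of all genes. For 10 of 29 all early tumors lay above all late tumors, against 2.79% of all genes. The mean log2 ratio over the list was 3.57 (11R), 3.50 (17R), 3.64 (22R) and 2.91 (31R) in early tumors and 2.73 (11L), 1.86 (13L), 2.77 (19R) and 2.15 (27L4A) in late tumors, so the groups did not overlap. The list was thus well above the reference in every tumor of both groups. For none of its 29 genes did the reference channel differ more than the tumor channel. In bulk RNA, fewer responding cells and less RNA in each cell cannot be told apart.

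By role, the RNA sensors were led by Dhx58, a regulator of RIG-I signalling. It was at 4.17, 4.14, 3.81 and 3.88 in early tumors and at 2.72, 2.30, 3.07 and 2.17 in late tumors, a difference of 1.43 (SE 0.25). The sensor Ifih1 differed by 0.51 and Ddx58, which encodes RIG-I, by 0.34. Of the signal transducers, Stat2 was at 2.72, 2.74, 2.59 and 2.27 in early tumors and at 1.95, 1.27, 1.87 and 1.39 in late tumors, a difference of 0.96 (SE 0.24) without overlap. Irf7, the transcription factor that amplifies interferon production, differed by 1.04 with overlap, and Irf9 by 0.32 without. The antiviral effector Mx2, a dynamin-like GTPase, was at 4.97, 4.74, 5.24 and 3.84 in early tumors and at 3.28, 2.74, 3.53 and 3.19 in late tumors, a difference of 1.51 (SE 0.33). Rsad2, viperin, differed by 1.95 (SE 0.53) and Ifit1, which binds uncapped viral RNA, by 1.82 (SE 0.64), each with 1 or more early tumors inside the late range. Usp18, a brake on receptor signalling that removes ISG15, was at 3.96, 4.16, 3.74 and 4.10 in early tumors and at 3.25, 2.72, 3.36 and 2.63 in late tumors, a difference of 1 (SE 0.24). Oas2, an enzyme that makes the activator of RNase L, differed by 0.18 (SE 0.22), with overlapping groups. Adjusted p over all genes was 0.252 for Dhx58 and higher for the rest of the list.

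**Figure D2:**
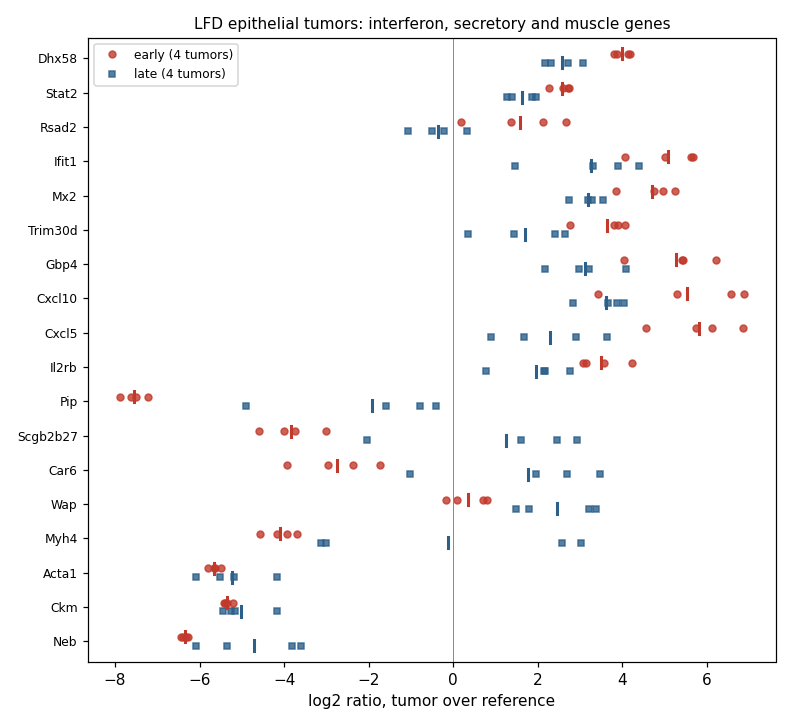
Log2 ratio of tumor over reference (x axis) of interferon-response, chemokine, secretory and muscle genes (y axis), with the 4 early tumors as points, the 4 late tumors as squares and bars at group means. Dhx58, Stat2 and Mx2 keep the groups apart above the reference; Pip, Scgb2b27 and Car6 place 3 late tumors far to the right of the early ones; Myh4 is above 2 in late tumors 13L and 19R only.

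The promoters of these genes were searched for the letters GAAA, any 2 bases and GAAA again, the core of the interferon-stimulated response element, on either strand from 250 bases before to 50 bases after the start. Promoters came from RefSeq (GRCm38.p6), matched by symbol. The letters were found in 513 of 13451 tested genes with a promoter (3.81%), in 11 of 21 of the type I interferon list (52.4%), in 9 of 10 interferon-gamma-induced GTPases (90%) and in 2 of 10 genes of MHC class I presentation (20%), and beyond the immune lists in 3 of 16 luminal markers (18.8%). They were also in 1 of 6 MHC class II genes (16.7%) and 1 of 7 B and plasma cell markers (14.3%). None of the 12 skeletal muscle genes and none of the 10 milk protein genes with a promoter held them. A match is a description of the sequence and not evidence of binding. Stretches from 6 genes, chosen to cover a signal transducer, effectors, a modifier, a chemokine and a GTPase, are shown 5′ to 3′ on the gene's strand, with the matched letters in capitals; where they read TTTC, any 2 bases, TTTC, the match is on the other strand.
Stat2: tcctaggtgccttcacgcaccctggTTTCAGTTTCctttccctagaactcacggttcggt
Ifit1: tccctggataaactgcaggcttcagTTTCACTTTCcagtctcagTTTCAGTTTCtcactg
Rsad2: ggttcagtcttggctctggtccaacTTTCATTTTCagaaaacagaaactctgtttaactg
Isg15: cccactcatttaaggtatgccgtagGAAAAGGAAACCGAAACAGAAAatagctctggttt
Cxcl10: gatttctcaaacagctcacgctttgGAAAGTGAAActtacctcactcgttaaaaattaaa
Gbp2: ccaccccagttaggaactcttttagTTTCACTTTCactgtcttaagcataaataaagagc

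These lie at chr10:128270251-128270310 on the plus strand (Stat2), chr19:34640760-34640819 plus (Ifit1), chr12:26456538-26456597 minus (Rsad2), chr4:156200862-156200921 minus (Isg15), chr5:92349068-92349127 minus (Cxcl10) and chr3:142620579-142620638 plus (Gbp2), all GRCm38.p6. The first match began 222 bases before the start in Stat2, 104 in Ifit1, 120 in Rsad2, 78 in Isg15, 213 in Cxcl10 and 59 in Gbp2. Isg15, which encodes the ubiquitin-like modifier removed by Usp18, held 3 overlapping matches, and its difference was 0.74 (SE 0.30). Rsad2, with 1 match, differed by 1.95, and Ifit1, with 2 matches, by 1.82.

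The interferon-gamma-induced GTPases were higher in early tumors for 15 of 15 members, with a median of 1.05. Of these, 6 had an unadjusted p under 0.05 (40%, against 4.08% of all genes). Only 1 of 15 kept the groups apart, where 2.79% of all genes had all early tumors above all late ones. Gbp4, a guanylate-binding protein, was at 5.40, 5.43, 6.21 and 4.04 in early tumors and at 4.08, 2.17, 2.98 and 3.22 in late tumors, a difference of 2.16 (SE 0.52). Gbp5 differed by 0.13 (SE 0.22). Early tumor 31R had the lowest mean over this list among early tumors, at 2.23, inside the late range of 0.95 to 2.72, while the other 3 were between 3.37 and 4.05. Several of these GTPases are near-identical copies whose probes may read each other.

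A list of 24 genes that pathway software tied to systemic autoimmune syndrome was taken from the study, with its paired gene names split. It came from the functions that the study gave as up-regulated in early tumors. The study chose it in early against late epithelial tumors of all diets, these 8 included, so its direction here is not independent evidence. Of the 24, 23 were higher in early tumors, with a median of 1.38, and 20 had an unadjusted p under 0.05 (83.3%, against 4.08% of all genes). For 6 of 24 all early tumors lay above all late ones, against 2.79% of all genes. It shares many members with the interferon lists. Of those it does not share, Trim30d, a tripartite motif protein, was at 4.07, 3.9, 3.79 and 2.75 in early tumors and at 2.65, 0.34, 2.4 and 1.43 in late tumors. The study also gave functions down-regulated in early tumors, which were not taken as a list here. Of their genes, Il2rb, Irgm1 and Rnase6 were higher in early LFD tumors, by 1.53, 1.02 and 2.49. Pip and Ccl25 were lower, by -5.64 and -0.99.

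Antigen presentation was less marked. All 12 genes of MHC class I presentation were higher in early tumors with a median of 0.76. Of them, 2 had an unadjusted p under 0.05 (16.7%, against 4.08% of all genes). Psmb10, a subunit of the immunoproteasome, was at 1.78, 1.57, 1.60 and 1.06 in early tumors and at 0.90, 0.65, 0.41 and 0.39 in late tumors. Tumor 13L set much of this list's difference: its mean over the list was 0.71 against 2.32 to 2.87 in the other late tumors and 2.43 to 3.10 in the early ones, H2-K1 was at -2.10 there, and without 13L the list's median was 0.31. Of 9 MHC class II genes, 8 were higher with a median of 0.40, and none had an unadjusted p under 0.05.

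Of 21 chemokine ligands, 19 were higher in early tumors with a median of 0.73. At an unadjusted p under 0.05, 5 were higher (23.8%, against 4.08% of all genes) and 1 was lower (4.76%, against 5.08%). Cxcl5, which draws neutrophils, was at 6.11, 6.85, 5.74 and 4.56 in early tumors and at 0.90, 3.63, 2.90 and 1.67 in late tumors, a difference of 3.54 (SE 0.66) with no overlap. Ccl4, an inflammatory chemokine, was between 5.54 and 6.42 in early tumors and between 3.75 and 5.02 in late tumors. Its difference was 1.5 (SE 0.32), of which the tumor channel gave 0.79 and the reference channel -0.72 with the opposite sign. Cxcl10, a ligand for activated T cells whose promoter is shown above, was at 5.30, 6.88, 6.56 and 3.41 in early tumors and at 4.04, 3.66, 3.87 and 2.83 in late tumors, where 31R fell inside the late range. Ccl25 was lower in early tumors, by -0.99 (SE 0.36). Without early tumor 17R the list's median was 0.40.

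Markers of cells that a tumor piece can hold were set beside these genes. Of 20 T and NK cell markers, 18 were higher in early tumors with a median of 0.89. Of the 20, 3 had an unadjusted p under 0.05 (15%, against 4.08% of all genes). The mean over the list was 0.91, 1.5, 1.53 and 0.36 in early tumors and 0.73, -0.49, 0.30 and 0.64 in late tumors, so the groups overlapped, and the median was 0.53 without 13L. Il2rb, an interleukin receptor chain of T and NK cells, was at 3.13, 4.23, 3.56 and 3.06 in early tumors and at 2.14, 0.78, 2.18 and 2.76 in late tumors. The T cell receptor subunit Cd3g was near the reference, between 0.08 and 1.93 in early tumors and between -2.2 and 1.01 in late ones. Of 10 B and plasma cell markers, 9 were higher with a median of 0.74, led by Fcrla (2.51, SE 0.84); the median was 0.31 without 17R, 1.11 without 31R and 1.16 without 11L. Of 18 macrophage markers 14 were higher with a median of 0.21, and of 11 neutrophil markers 6 with a median of 0.35. Ccr7, a receptor of migrating dendritic cells and T cells, and Ccr2, a receptor of monocytes, were named after their values were seen. They differed by 1.85 (SE 0.41) and 1.49 (SE 0.30), both without overlap. The part of these cells in the interferon differences was not tested.

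Muscle transcripts went the other way. Of 16 skeletal muscle markers, 14 were lower in early tumors with a median of -1.09. At an unadjusted p under 0.05, 7 were lower (43.8%, against 5.08% of all genes). For 5 of 16 all early tumors lay below all late ones, against 3.25% of all genes. The mean over the list was between -5.42 and -4.92 in early tumors and -4.79 (11L), -3.44 (13L), -2.99 (19R) and -5.19 (27L4A) in late tumors. Myh4, the fast myosin heavy chain, was at -4.18, -3.70, -4.57 and -3.94 in early tumors and at -3.12, 2.58, 3.02 and -3.00 in late tumors, so the difference of -3.97 (SE 1.41) lay mostly in 13L and 19R. Pvalb, parvalbumin, was at 0.11 in 19R and -1.93 in 13L, against -4.29 to -3.68 in the other 6 tumors. Acta1 and Ckm, also of the muscle list, stayed far below the reference in every tumor, between -6.08 and -4.16 for Acta1 and between -5.45 and -4.18 for Ckm. In tumor 27L4A the mean over the muscle markers lay inside the early range, while Myh4 lay above the early tumors. Car6 was at 3.47 there, the highest of the 8. A link between the muscle and secretory genes was not tested.

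**Figure D3:**
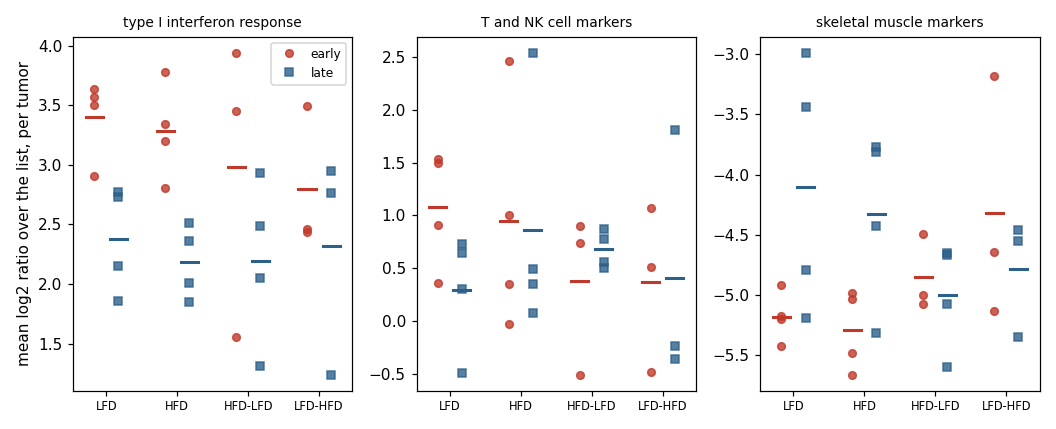
Mean log2 ratio over each list per tumor (y axis) for 3 gene lists, by diet regimen and onset (x axis), with early tumors as points, late tumors as squares and bars at group means. Under LFD the interferon means are 2.91 to 3.64 in early and 1.86 to 2.77 in late tumors; the T and NK cell and muscle means overlap between the groups. The HFD points include 3 tumors whose scanner files match another tumor's column of the authors' matrix.

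Epithelial genes differed little as groups. Of 21 luminal markers 13 were higher in early tumors (median 0.35), and of 18 basal and myoepithelial markers 7 were (median -0.28). Esr1, the estrogen receptor, was at 1.08, 0.86, 2.01 and 5.09 in early tumors and at 0.97, -3.12, 0.83 and -0.61 in late tumors. Its 4 probes all had higher means in early tumors, by 0.67 to 2.74, but 31R was the highest tumor for each, at 2.5 to 5.09. The probes that differed by 0.67 and 1.1 were each well above background on only 3 of the 8 arrays. Areg, Ccdc170 and Prlr were named after their values were seen. In early tumor 31R, Areg, the amphiregulin gene, was at 4.75 against 1.43 to 2.52 in the other early tumors, Ccdc170, next to Esr1 in the genome, at 4.70 against 0.03 to 1.26, and Prlr, the prolactin receptor, at 6.36 against 1.90 to 3.37. Kit, the receptor of luminal progenitors, was between 0.94 and 2.22 in early tumors and between 1.33 and 3.85 in late tumors, a difference of -1.21 (SE 0.52).

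Growth genes showed no common shift. Of 26 cell division genes 10 were higher and 16 lower in early tumors, with a median of -0.05 and none at an unadjusted p under 0.05. Mki67 was between -0.51 and 0.24 in early tumors and between -0.41 and 1.28 in late tumors. The median was 0.19 over 24 genes of the RB pathway and oncogenes, where Fgfr1, a growth factor receptor, was at 1.74, 0.61, 1.30 and 0.67 in early tumors and at -0.35, -0.61, 0.44 and -0.40 in late tumors. It was 0.12 over 19 genes of Trp53 and its targets, and 0.03 over 27 genes of the Wnt and Notch pathways. Of 20 hypoxia and glycolysis genes, 16 were higher in early tumors with a median of 0.40. Hk2, the hexokinase of growing tumors, was at 1.18, 1.68, -0.02 and 0.58 in early tumors and at -0.81, -0.65, -0.62 and -0.18 in late tumors, a difference of 1.42 (SE 0.36). The median was 0.57 over 14 adipocyte markers, 0.32 over 16 endothelial markers, 0.23 over 16 collagen genes, 0.00 over 20 fibroblast and mesenchymal markers, 0.19 over 18 keratinising squamous markers, 0.19 over 21 genes of cholesterol and fatty acid synthesis and 0.14 over 10 housekeeping genes.

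**Figure D4:**
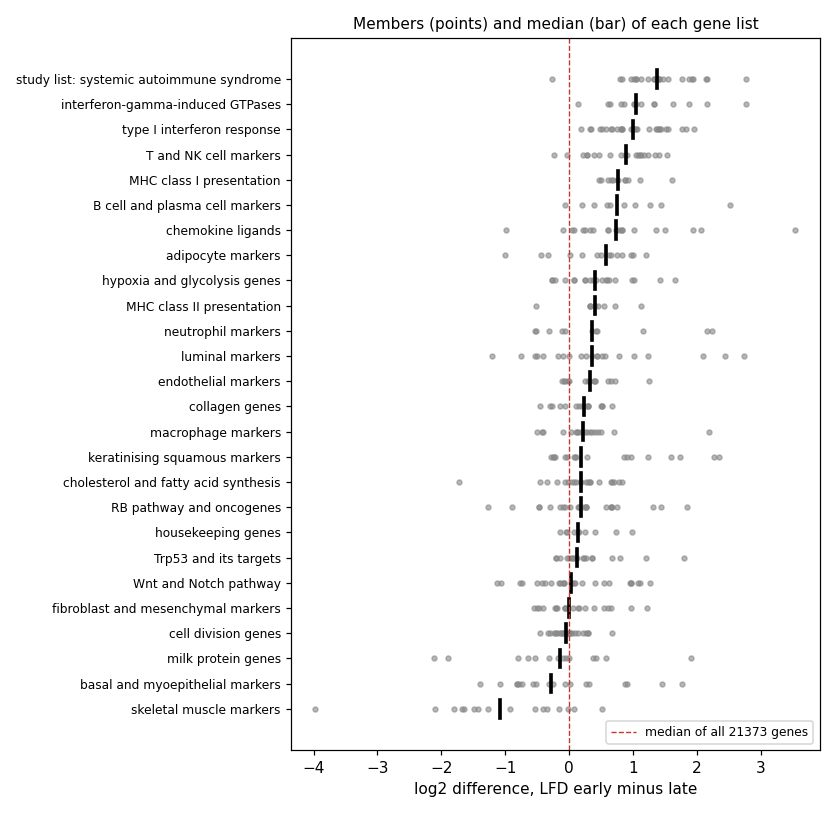
Difference between LFD early and late tumors (x axis, log2) for the tested members of 26 gene lists (y axis), with points for genes and bars for list medians; the dashed line is the median of all 21373 genes, -0.01. The interferon lists and the study's list lie to the right, at medians of 1 to 1.38, and skeletal muscle to the left at -1.09.

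The size of a gene's difference followed its level in the other 21 epithelial tumors. The median difference was -0.43 for 483 genes with a mean log2 ratio under -4, -0.08 for 6698 genes between -2 and 0, 0.05 for 12085 genes between 0 and 2, 0.50 for 525 genes between 2 and 3 and 0.75 for 169 genes over 3. Of the genes over 3, 85.8% were higher in early tumors. The type I interferon list had a median level of 2.73 in those tumors, the GTPases 2.43 and the muscle markers -5.01, so their medians stand beside 0.50 and -0.43 for genes of like level as well as beside -0.01 for all. The median absolute deviation of the log2 ratios was 1.1 to 1.20 on the early arrays, 0.82 on 11L, 1.32 on 13L and 1.08 on each of the other late arrays. With every array scaled to the same spread, a choice made after seeing the data, the median was 0.64 for the type I interferon list, 0.74 for the GTPases, 1.12 for the study's list, 0.39 for MHC class I presentation, 0.45 for chemokines, 0.73 for T and NK cell markers, 0.56 for B and plasma cell markers, 0.1 for MHC class II and -0.60 for muscle.

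**Figure D5:**
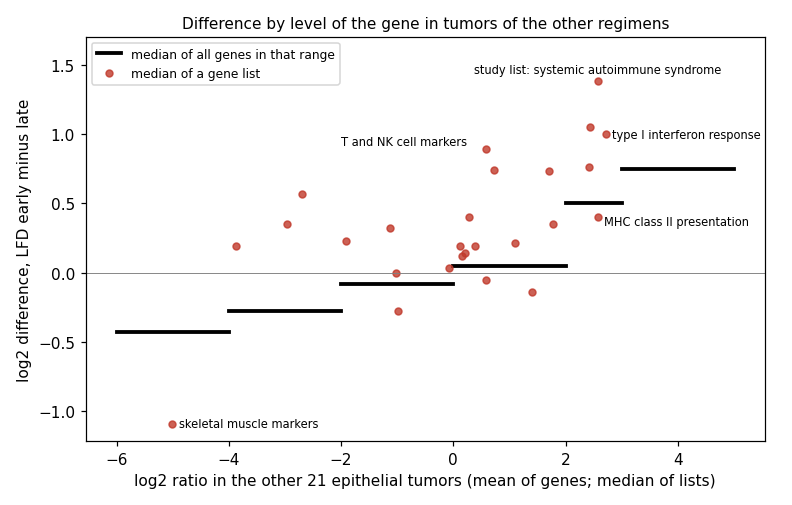
Median difference between LFD early and late tumors (y axis, log2) against the level in the other 21 epithelial tumors (x axis, log2 ratio), with black bars for all genes within a range of level and points for the 26 gene lists; the first and last bars stand for all genes under -4 and over 3. Bars rise from -0.43 to 0.75, the interferon lists lie above the bar of their range and MHC class II at 0.40 below it.

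The onset contrast under LFD was then set against that of the other regimens, which were high-fat diet throughout (HFD), HFD followed by LFD (HFD-LFD) and LFD followed by HFD (LFD-HFD). The LFD effect minus the mean of the other 3 passed an adjusted p of 0.10 for no gene (0%), with a smallest adjusted p of 0.716 by limma, and had an unadjusted p under 0.05 for 1214 genes (5.68%). Without the HFD tumors 40R4A, 57R and 65R, which leaves 2 early and 3 late HFD tumors, the test again called 0 genes, with a smallest adjusted p of 0.121 and 2204 of 20469 genes at an unadjusted p under 0.05; the authors' matrix called 0, with 0.426 and 1355 genes. The type I interferon list had a median onset difference of 0.94 in HFD, 0.81 in HFD-LFD and 0.44 in LFD-HFD beside 1 in LFD, and 0 of its 29 genes had an unadjusted p under 0.05 for the difference between regimens. Without the 3 tumors its HFD median was 1.02 and 0 of 29 genes reached that p. In the authors' matrix the HFD median was 0.71 and 2 of 28 genes did. LFD has no slide with both onsets. On the LFD-HFD slide that held 1 early and 3 late tumors the median was 1.09. Its early tumor, 82L, had the highest list mean (3.49) of the 3 early LFD-HFD tumors. On that slide the medians were 0.85 for the GTPases and 0.18 for chemokines, with the sign seen in LFD. They were -0.81 for T and NK cell markers, -2.23 for B and plasma cell markers and 0.93 for muscle markers, with the opposite sign. The HFD slide with both onsets held the 3 tumors in question and 1 other, so no value is given for it. Dhx58 differed by 1.24, 0.96 and 0.50 in those 3 regimens, in the order given, and by 1.71 in HFD without the 3 tumors.

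Pip, Wipf3 and Kcnj13 were among the genes at the smallest adjusted p of the regimen test. The onset difference of Pip was -0.67 in HFD, -1.57 in HFD-LFD and -0.48 in LFD-HFD against -5.64 in LFD, so the LFD effect minus the mean of the others was -4.74. Without the 3 HFD tumors its HFD difference was -2.69 and that contrast -4.07. For Wipf3 the differences were -0.70, 0.18 and -0.15 against -2.62, and for Kcnj13 0.48, 0.71 and -1.75 against -2.99; without the 3 tumors their HFD differences were 0.17 and 1.4. Without 11L, and with the 3 HFD tumors kept, Pip, Scgb2b2 and Scgb2b20 passed the regimen test. No gene passed it with any other single LFD tumor left out. Pla2g4c differed by 1.45 (1.68 without the 3 tumors and 0.25 in the authors' matrix), 0.47 and 0.22 in the other regimens against 2.67. The T and NK cell markers had medians of 0.01, -0.14 and -0.02 against 0.89 in LFD, with 0 of 20 genes at an unadjusted p under 0.05 for the difference between regimens. This depended on the 3 HFD tumors: without them the HFD median was 0.38 and 4 of 20 genes reached that p, and in the authors' matrix the HFD median was 1 and 0 genes did. For the muscle markers the medians were -0.42, 0.21 and 0.29 against -1.09, and 6 of 16 genes reached that p. Without the 3 tumors the HFD median was -0.80 and 1 of 14 genes did, and in the authors' matrix they were -0.30 and 4 of 16.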

How the data were processed

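Each array had a deposited scanner file of Agilent Feature Extraction (version 11.0.1.1 in the headers, 8.5.1.1 in the labels; build mm9). Per the file headers, the deposited processed intensities of both channels had been background-subtracted and dye-normalised by that software. The authors also deposited a matrix of lowess-normalised log2 ratios, imputed by nearest neighbours, which served as an alternative. Its columns for the 29 epithelial tumors were used and its other 12 columns were not. In R 4.3.3, log2 of Cy5 over Cy3 was taken for each of 39429 probes, outlier spots were left out (0.0287% of gene values), spots of a probe were averaged, and probes were kept where both signals were over 10 on at least 80% of arrays, after the study. The brightest probe stood for a gene. This left 21373 genes, 17222 of them with a current RefSeq name.

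Early and late LFD tumors were compared with limma 3.58.1 (lmFit, eBayes, two-sided, no covariates) with Benjamini-Hochberg adjustment at 0.10, the study's false discovery rate. Its own test, SAM, permutes samples and was not run. The contrast between regimens came from 1 fit of 29 epithelial tumors in 8 groups. The number of arrays limits precision. The code was tested on simulated data. Named genes were those called, or the 10 of smallest p in each direction, and from each list the 2 of smallest p; other genes were named as members of a list or after their values were seen. The members and gene lists were chosen with earlier results of these data known. Some genes are not reported here. Alternatives were other background correction, centring, filters, probe averaging, the matrix, all 29 tumors, slide as a random block and leaving out tumors.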

Additional observations from a re-analysis of the deposited data

Results flagged for a closer look

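In 18 of 160 sets of 4 tumors tested, 1 tumor lay apart from the other 3 by more than Dixon's critical value. The sets shared the same 8 arrays and most of their genes were chosen by p. The count therefore cannot be set against the 1 in 20 that holds for independent sets. On array 11L the share of spots well above background was 89.87%, the median tumor signal 338.4 and the SD of log2 ratios 1.319, each apart from the other late arrays. In late tumor 13L the log2 ratio was -1.62 for Epcam and -2.25 for Trp53, both below the other late tumors, and -1.11 for Nkd1, above them.

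Late tumor 27L4A stood apart for Kcnj13 at 1.48, above the other late tumors, and for Erbb2 at -0.47 and Krt8 at 1.33, below them. Late tumor 19R had Fabp3 at -1.26, where the others were between -4.50 and -4.26. Among early tumors, 17R had Arg1, an arginase of macrophages, at 1.15 where the others were between -2 and -1.61, and it stood apart for Gm12758 at -2.92, Klhl32 at -2.69 and Fabp3 at -5.35. Early tumor 31R had Lgr5 at -4.59 and Ncr1, a receptor of NK cells, at 0.87, both below the other early tumors, and 11R had Sult5a1 at -3.55 and Ngp at -3.85.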

How the results depend on the processing

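No gene was called with the 8 tumors, and the count was also 0 in both directions under normexp with loess, median centring, both other filters, probe averaging, the authors' matrix, outlier spots kept and arrays scaled to 1 spread (added after seeing the data); 1959 genes had an unadjusted p under 0.05, and between 1400 and 2326 under the alternatives. The fit of 29 tumors called 1 gene higher and 3 lower, and without the HFD tumors 40R4A, 57R and 65R (added after seeing the data) 0 higher and 3 lower. With slide as a random block (consensus correlation 0.0294) it called 1 lower, Pip, at an adjusted p of 0.0475. Leaving out 1 tumor gave 0 to 5 genes lower, 5 without 11L (Pip, Car6, Scgb2b2, Scgb2b20 and Scgb2b27) and 1 without 13L (Adgrf3); without both 11R and 11L there were 5 lower. The regimen test called 0 to 3 genes lower, 3 without 11L. Without the 3 HFD tumors it called 0, with 2204 genes at an unadjusted p under 0.05 against 1214. Pip kept its sign in all 20 alternatives, from -6.66 to -3.75. So did Wipf3 (-3 to -2.44), Kcnj13 (-3.2 to -1.24) and Pla2g4c (1.13 to 2.96), and the sizes of the last pair depended most on the processing.

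List medians stayed within the spread of the tumors in 491 comparisons with an alternative and moved beyond it in 3. The chemokine median of 0.73 was 0.45 with arrays scaled to 1 spread and ranged from 0.40 to 0.80 over single tumors left out, and the Wnt and Notch median was 0.41 without 11R and 11L. Without 11L the median was 0.62 for MHC class II, 0.36 for macrophage markers, 0.29 for Trp53 and its targets, 0.27 for hypoxia genes and 0.22 for luminal markers. The interferon, GTPase and muscle medians kept their sign in 19 of 19. Camp, a neutrophil granule gene at -0.53, was at 0.06 with arrays scaled to 1 spread. The cause was not tested. No paired analysis was possible because early and late tumors have 1 label number in common, 11. Signal over background limits Pip, Kcnj13, Gm12758, Scgb2b27 and Adgrf3, among others, in early tumors.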
